A study of Mus musculus with 98 samples.

Results

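Fatty acid oxidation enzymes were followed as 10 genes (Cpt1a, Cpt2, Acadm, Acads, Acadl, Acadvl, Hadha, Hadhb, Acaa2 and Etfdh) in mouse CD4 T cells that lost STAT5, kept part of it or received a STAT5 vector. STAT5 is the name of a pair of transcription factors, the products of Stat5a and Stat5b, that become active below the receptor of interleukin-2 (IL-2). The genes were picked by symbol, and all 10 were found among the 22984 genes shared by 7 tables of RNA-seq read counts. The 7 tables hold 88 libraries in 43 groups, out of 98 samples in the series. All cells came from C57BL/6 mice and, apart from the natural Treg cells of set 6, began as naive CD4 T cells sorted out of spleen and lymph nodes and activated through CD3 and CD28.

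Set 1 compared activated wild-type cells that were rested overnight and then given human IL-2 for 18 h, on day 4 of culture, with cells taken after the rest on day 3 (3 libraries each), so that IL-2 and the added culture time cannot be told apart. In sets 2, 3 and 5, cells with floxed Stat5a and Stat5b and 1 copy of Cd4-Cre, which deletes both genes in T cells, were set against wild-type cells. Both genotypes carried retroviral vectors and received IL-2 for 18 h on day 4. The vectors were STAT5, MYC and an empty control in set 2, STAT5, AKT, CD25 and control in set 3, and in set 5 pairs of vectors (control with STAT5, MYC or AKT, STAT5 with MYC or AKT, and control with control). Set 4 held the same 2 genotypes after 3 days without added cytokine or blocking antibody (Th0), with IL-12 and anti-IL-4 (Th1), with IL-4 and anti-IFNg (Th2), with TGF-b, IL-6 and both antibodies (Th17), or with TGF-b and both antibodies (iTreg). Set 6 compared FoxP3+ natural Treg cells cultured overnight in IL-2 with the same kind of cell taken directly from mice. Set 7 compared cells with 1 Stat5b copy and no Stat5a (Stat5a-/- Stat5b+/-), cells with 1 Stat5a copy and no Stat5b (Stat5a+/- Stat5b-/-), and wild-type cells, all with IL-2 at 4 days. Every group outside set 1 had 2 libraries.

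Mitochondrial beta-oxidation shortens fatty acids to acetyl-CoA and passes electrons to the respiratory chain. Long-chain acyl groups enter the mitochondrion as carnitine esters: CPT1A forms them at the outer membrane, which is the step that malonyl-CoA inhibits, and CPT2 turns them back into acyl-CoA inside. Acyl-CoA dehydrogenases with overlapping chain-length preferences then act (ACADVL on very long, ACADL on long, ACADM on medium and ACADS on short chains), followed by the trifunctional protein of HADHA and HADHB, the thiolase ACAA2, and ETFDH, which hands the dehydrogenases' electrons to ubiquinone. In T cells, activated effector cells are known for high glycolysis, while resting, memory and regulatory cells are known to burn relatively more fatty acid.

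Promoter windows were available for 9 of the 10 genes, from 250 bases before to 50 bases after the start of transcription (RefSeq, build GRCm38.p6). Shown here are those of Cpt1a and Acadm, the members that changed most on loss of STAT5 in cells with control vectors, and those of Cpt2 and Hadhb, chosen because they hold the STAT palindrome. Capitals mark TGACCT, the reverse complement of the nuclear receptor hexamer AGGTCA, and TTCNNNGAA, the palindrome that STAT factors bind.
Cpt1a, chr19:3323051-3323350, plus strand: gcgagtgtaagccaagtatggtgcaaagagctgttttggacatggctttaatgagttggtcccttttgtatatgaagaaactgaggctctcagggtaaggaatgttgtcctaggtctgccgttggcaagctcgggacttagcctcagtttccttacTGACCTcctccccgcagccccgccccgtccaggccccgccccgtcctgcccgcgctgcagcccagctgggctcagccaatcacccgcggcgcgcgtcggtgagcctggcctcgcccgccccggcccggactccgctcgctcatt
Acadm, chr3:153944594-153944893, minus strand: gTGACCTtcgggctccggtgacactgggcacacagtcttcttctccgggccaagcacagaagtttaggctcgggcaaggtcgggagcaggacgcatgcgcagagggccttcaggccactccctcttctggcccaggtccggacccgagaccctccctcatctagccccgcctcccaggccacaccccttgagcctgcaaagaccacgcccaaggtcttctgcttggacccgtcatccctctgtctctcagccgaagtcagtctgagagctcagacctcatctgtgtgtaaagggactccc
Cpt2, chr4:107923540-107923839, minus strand: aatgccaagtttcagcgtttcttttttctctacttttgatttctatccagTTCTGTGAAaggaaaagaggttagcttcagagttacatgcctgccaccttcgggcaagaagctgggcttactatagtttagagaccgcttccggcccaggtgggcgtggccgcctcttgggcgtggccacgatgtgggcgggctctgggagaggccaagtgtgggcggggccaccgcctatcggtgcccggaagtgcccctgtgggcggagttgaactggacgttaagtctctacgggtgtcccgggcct
Hadhb, chr5:30155003-30155302, plus strand: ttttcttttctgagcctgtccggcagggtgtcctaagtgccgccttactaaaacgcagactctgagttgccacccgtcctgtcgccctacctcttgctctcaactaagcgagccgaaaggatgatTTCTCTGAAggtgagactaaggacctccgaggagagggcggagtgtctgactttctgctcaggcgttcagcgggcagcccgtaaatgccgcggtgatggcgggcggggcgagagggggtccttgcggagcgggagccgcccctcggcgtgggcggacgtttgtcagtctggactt

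The palindrome TTCNNNGAA began at position -200 in Cpt2 and at -125 in Hadhb, relative to the start. Hadha held the same bases at -156, since Hadha and Hadhb are transcribed away from each other with starts 273 bases apart and windows that share 228 bases. The 3 windows with this palindrome compare with 8.3% of 32841 mouse windows. The hexamer AGGTCA, searched on both strands, was present in Cpt1a at -94, Acadm at -249 and Acadvl at -87, against 16.3% of all windows. The MYC E-box CACGTG and the FOXO motif GTAAACA were in none of the 9 windows and in 7.15% and 3.65% of all windows. These are matches of letters only, and the study's peak lists, which use build mm9, were not placed on them.

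Library totals ran between 3900629 and 49096802 counts with a median of 16871522. The lowest count of any of the 10 genes in any library was 87, so all 10 passed the filter on low counts in each model. Levels are given as CPM, the count scaled by the TMM-adjusted library size, which are not corrected for gene length and are compared only within a gene. The 6 T cell markers (Cd3e, Cd3d, Cd3g, Cd4, Lck and Cd28) were at 98.4 CPM or more in each of the 88 libraries. Deficient cells with control vectors had 1.8 to 17 CPM of Stat5a, against 74.3 to 107.4 CPM in wild-type cells, and 642.2 to 1086.8 CPM after the STAT5 vector alone or with a control vector. Stat5b had 1 to 7.3 CPM in deficient cells with control vectors, against 170.9 to 220.6 CPM in wild-type cells. After the STAT5 vector Stat5b was at 31.8 to 69.9 CPM in deficient cells, still below wild-type cells, whereas Stat5a was above them. Among the vector libraries 5 stood apart: 1 deficient control of set 2 and 1 deficient library with STAT5 and AKT by high Rn45s ribosomal RNA, 1 wild-type STAT5 library of set 3 by the lowest depth (with 137 CPM of Stat5a, against 636.5 CPM in its replicate), and the first deficient library with control vectors and the first with MYC in set 5 by residual Stat5a of 17 and 16.2 CPM. Values without these 5 are given where they matter. Labels do not say that replicates come from separate mice, so p-values measure the spread between these libraries only, and with mRNA from a whole culture fewer cells of a type cannot be told apart from less RNA per cell.

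When IL-2 followed overnight rest, transcripts of the entry step, of several acyl-CoA dehydrogenases and of the electron transfer step were lower than at rest, and Cpt1a changed most among the 10. Its level was 63.2, 57.4 and 58.7 CPM in the 3 IL-2 cultures, against 140.5, 143.8 and 133.4 CPM in the 3 rested cultures. All IL-2 libraries lay below all rested ones, and the log2 fold change was -1.22 ± 0.06 (standard error; adjusted p = 1.86e-12, edgeR quasi-likelihood test with Benjamini-Hochberg adjustment over all genes tested, as for each adjusted p here). Cpt2, the inner carnitine palmitoyltransferase, had 19.3, 22.8 and 20.6 CPM with IL-2 and 21.4, 24.1 and 25.3 CPM at rest. These values overlap, and the difference did not pass the test (log2 fold change -0.17, adjusted p = 0.0899).

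Etfdh, the link from the dehydrogenases to ubiquinone, had 45, 46.4 and 47.1 CPM with IL-2, against 74.3, 74 and 81.1 CPM at rest (log2 fold change -0.72 ± 0.06, adjusted p = 2.8e-09). The short-chain dehydrogenase gene Acads had 37, 35.7 and 33.8 CPM with IL-2, against 53, 52.1 and 55.2 CPM at rest (-0.59 ± 0.07, adjusted p = 1.39e-07). In both genes the groups were fully separate. Smaller falls passed the test for the very-long-chain gene Acadvl (-0.34), the medium-chain gene Acadm (-0.27) and Hadha (-0.28), the gene of the trifunctional protein's hydratase and dehydrogenase subunit. Hadha had 172.4, 173.2 and 170 CPM with IL-2 and 209.6, 209.9 and 208.3 CPM at rest.

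Its partner Hadhb, which encodes the thiolase subunit of the same complex, moved the other way. Hadhb had 115.9, 117.1 and 114.8 CPM with IL-2 and 103.5, 98.6 and 99.3 CPM at rest, again without overlap (log2 fold change 0.21 ± 0.06, adjusted p = 0.00229). Thus 1 gene rose and 6 fell. Of all genes tested in this comparison 81.1% were called, in near-equal numbers (40.7% higher, 40.3% lower), so a count of 7 out of 10 is near the background, and 22.9% of genes changed more than Cpt1a. The median log2 fold change was -0.28 for the 10 genes and -0.01 for all genes.

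Other genes of the pathway went in both directions. Of 12 further mitochondrial beta-oxidation genes tested, 4 rose and 6 fell, the carnitine-acylcarnitine carrier Slc25a20 among them (log2 fold change -0.97, adjusted p = 9.01e-11). Of 9 peroxisomal genes 1 rose and 7 fell, with a median of -0.87, including the acyl-CoA oxidase gene Acox3 (-1.21). Of 9 genes of fatty acid uptake and activation 8 rose and 1 fell, with a median of 0.87, led by the acyl-CoA synthetase gene Acsl6 (3.34) and the fatty acid binding protein gene Fabp5 (2.88). Acaca, the acetyl-CoA carboxylase gene whose product forms malonyl-CoA, rose (1.51), and the lipid droplet gene Plin2 fell (-2.28). Summed CPM of 6 myeloid and antigen-presenting cell markers was 4.3 to 5.7 with IL-2 and 77.2 to 91.9 at rest, with 3 of 6 lower, and that of 5 B cell markers was 3.1 to 3.2 with IL-2 and 15.3 to 15.8 at rest. The 4 NK cell markers summed to 3.1 to 5.3 CPM with IL-2 and 24 to 33 CPM at rest, and 5 of 6 T cell markers were lower as well (sums of 2284.8 to 2407.6 CPM with IL-2 and 3508.9 to 3546.2 CPM at rest). Rn45s was lower too (1150.4 to 1389.3 CPM with IL-2 and 2458.3 to 3498.4 CPM at rest), and the 4 Treg cell markers, with the IL-2 receptor gene Il2ra among them, summed to 2382.3 to 2514.5 CPM with IL-2 and 557.8 to 619.5 CPM at rest. Their part in the result was not tested.

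Where cells with control vectors received IL-2, loss of STAT5 gave the opposite pattern at Cpt1a and Acadm: both were higher in deficient cells in sets 2, 3 and 5. Cpt1a had 176.8 and 160 CPM in deficient cells of set 2, against 52.2 and 40.1 CPM in wild-type cells. In set 3 it had 162.5 and 202.7 CPM in deficient cells, against 65.3 and 67.2 CPM in wild-type cells, and in set 5 it had 223 and 203.1 CPM in deficient cells, against 97.4 and 82.9 CPM in wild-type cells. No deficient library overlapped a wild-type one in any set. Averaged over the 3 sets the log2 fold change was 1.52 ± 0.10 (95% interval 1.34 to 1.71, adjusted p = 8.41e-16, 6 libraries each), a fold of 2.87. It was called in each set (1.87, 1.46 and 1.24), and without the 5 libraries that stood apart it was 1.52.

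**Figure D1:**
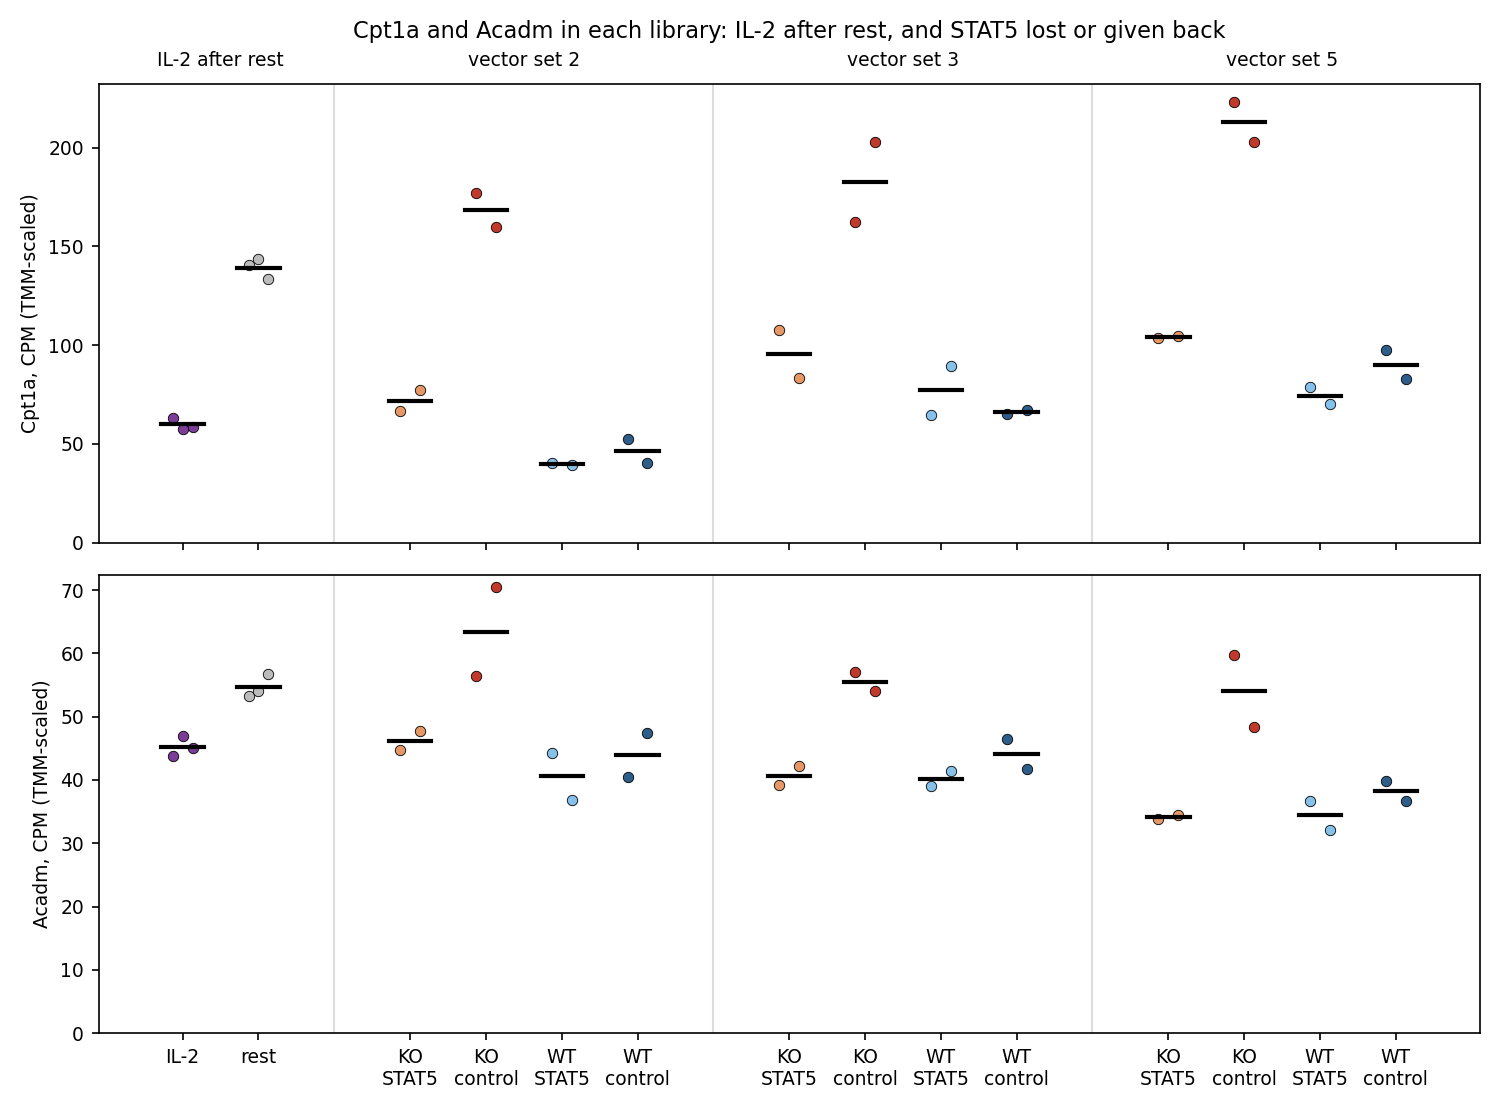
Level of Cpt1a and Acadm in CPM (vertical axes, from 0) in each library of set 1 and of sets 2, 3 and 5 with control and STAT5 vectors; points are libraries and bars are group means. Cpt1a lies between 160 and 223 CPM in deficient cells with control vectors and between 66.6 and 107.4 CPM in deficient cells with STAT5, while wild-type libraries of the vector sets reach at most 97.4 CPM.

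Cpt2 did not follow Cpt1a. It had 24.9 and 24.2, 23.6 and 20.4, and 16.3 and 11.9 CPM in deficient cells of sets 2, 3 and 5, against 27.7 and 27.5, 23.1 and 25.5, and 20.1 and 16.4 CPM in wild-type cells. The mean log2 difference of -0.24 missed the threshold (adjusted p = 0.0539). It passed with the replicate number as a block (-0.23, adjusted p = 0.031), and also without the 5 libraries that stood apart (-0.31, adjusted p = 0.0195).

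Among the dehydrogenases, Acadm had 56.4 and 70.5 CPM in deficient cells of set 2, against 40.5 and 47.4 CPM in wild-type cells. In set 3 it had 57 and 54.1 CPM in deficient cells, against 46.5 and 41.8 CPM in wild-type cells, and in set 5 it had 59.8 and 48.3 CPM in deficient cells, against 39.9 and 36.6 CPM in wild-type cells. The groups were separate within each set, and the change was called in each (0.53, 0.33 and 0.49; mean 0.45 ± 0.07, adjusted p = 2.47e-06; 0.34 without the 5 libraries that stood apart).

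Acads rose too (0.33 ± 0.07, adjusted p = 0.000105), with 64.1 and 66.5 CPM in deficient cells of set 2 against 41.9 and 50.4 CPM in wild-type cells. In set 5 its difference was 0.14 and was not called. Acadl fell narrowly in deficient cells (-0.19, adjusted p = 0.047). That call was lost with RLE scaling, with DESeq2, without the filter on low counts, or when any of several single libraries was left out (adjusted p up to 0.166), and 0 of the 3 sets called it alone. Acadvl (-0.01) differed in sign between sets and was called in set 2 only (0.33).

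Both subunits of the trifunctional protein were near their wild-type level or below it. Hadha showed no mean difference (0.00, adjusted p = 1), with sets between -0.15 and 0.21. Hadhb fell (-0.24 ± 0.07, adjusted p = 0.00254), most in set 5, where it had 77 and 63.9 CPM in deficient cells and 94.5 and 89.1 CPM in wild-type cells. Without the filter on low counts, a setting that moves the median of all genes by 0.19, the Hadhb difference was -0.06 and no longer passed. The thiolase gene Acaa2 (-0.16, adjusted p = 0.0668) and Etfdh (0.08, adjusted p = 0.344) did not pass.

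In this comparison 3 genes rose and 2 fell, that is 5 of 10 against 59.8% of all genes called (28.9% higher and 30.9% lower). The median log2 fold change was -0.01 for the 10 genes and 0.05 for all genes. Larger changes than that of Cpt1a were seen in 16% of genes, and larger ones than that of Acadm in 62.9%. Other pathway genes moved in both directions. Of 9 peroxisomal genes 6 rose and 0 fell (median 0.42), among them the carnitine octanoyltransferase gene Crot (0.89, adjusted p = 1.07e-10). Of 12 further mitochondrial genes 4 rose, Slc25a20 among them (0.92, adjusted p = 1.3e-10), and 6 fell, Acat1 among them (-0.66). Of 9 uptake and activation genes 1 rose and 8 fell (median -1.86), with Acsl6 at -4.95, Fabp5 at -3.07 and the acyl-CoA binding protein gene Dbi at -1.87. Acaca fell (-1.78) and Plin2 rose (1.68).

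Markers of other cells moved as well: in deficient cells 4 of 6 markers of myeloid and antigen-presenting cells were higher, with summed CPM of 59.6 to 248.4 in deficient cells and 11.7 to 42.6 in wild-type cells. Of these, Csf1r, Fcer1g and Lyz2 were below 1 CPM in every library. Of 5 B cell markers 4 were higher, with sums of 4 to 12.1 CPM in deficient cells and 1.1 to 3.7 CPM in wild-type cells, and Blnk was below 1 CPM throughout. The 6 T cell markers were also all higher, with sums of 3277.3 to 3593.5 CPM in deficient cells and 2171.9 to 2691.6 CPM in wild-type cells. Il2ra, 1 of the 4 Treg cell markers, had 87.6 to 201.2 CPM in deficient cells and 2244.3 to 2870.2 CPM in wild-type cells. It made up most of the wild-type sum of these markers. All 4 (2 higher, 1 lower) summed to 408.3 to 570.7 CPM in deficient cells and 2439.4 to 3210.9 CPM in wild-type cells. Their part in the result was not tested.

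A STAT5 vector lowered Cpt1a and Acadm in deficient cells, and 0 of the 10 genes were called in wild-type cells. Cpt1a had 66.6 and 77.2 CPM in deficient cells of set 2 with STAT5, against 176.8 and 160 CPM with the control vector. It had 107.4 and 83.3 CPM with STAT5 in set 3 and 103.5 and 104.6 CPM in set 5, against 162.5 and 202.7 CPM, and 223 and 203.1 CPM, with control vectors. The groups did not overlap in any set, and the log2 fold change was -1.07 ± 0.09 (adjusted p = 4.02e-12; -1.23, -0.94 and -1.03 in the 3 sets, each called). Acadm had 44.7 and 47.7, 39.2 and 42.2, and 33.9 and 34.5 CPM with STAT5, against 56.4 and 70.5, 57 and 54.1, and 59.8 and 48.3 CPM with control vectors (-0.52 ± 0.07, adjusted p = 1.6e-07), again without overlap and called in each set.

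Cpt2, Hadhb and Acaa2 rose on average, but mainly through set 5, where 2 vectors were combined. In that set Cpt2 had 26 and 21.6 CPM with STAT5 and 16.3 and 11.9 CPM with control vectors, and its log2 fold changes were 0.00, 0.20 and 0.77 in sets 2, 3 and 5 (mean 0.32, adjusted p = 0.00783). Hadhb had 96.4 and 108.6 CPM with STAT5 in set 5 and 77 and 63.9 CPM with control vectors (sets -0.06, -0.01 and 0.54; mean 0.16, adjusted p = 0.0468). Its call was lost with the replicate number as a block (adjusted p = 0.0538) and with RLE scaling, DESeq2, no filter on low counts or only the groups compared. Acaa2 had 72 and 61.3 CPM with STAT5 in set 5 and 47.7 and 45.2 CPM with control vectors (sets 0.15, 0.10 and 0.52; mean 0.26, adjusted p = 0.00381).

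The dehydrogenase genes other than Acadm gave no call on average, and in sets 2 and 5 they had opposite signs. Acadvl was -0.37 in set 2 and 0.45 in set 5, both called, Acadl was -0.41 in set 2, called, and 0.28 in set 5, and Acads was -0.33 in set 2, called, and 0.24 in set 5. Etfdh was called lower in set 2 (-0.33) and set 3 (-0.30) and stood at 0.15 in set 5. Over the 3 sets, 3 genes rose and 2 fell, 5 of 10 against 61.7% of all genes called (31.9% higher and 29.7% lower), with medians of 0.01 for the 10 genes and -0.07 for all genes. Without the filter on low counts 3 were called, Cpt2, Hadhb and Acaa2 no longer passed and Etfdh did. Leaving out the second deficient control library of set 5 also left 3.

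In wild-type cells 17.3% of genes were called with the STAT5 vector, but 0 of the 10 were, by edgeR or by DESeq2, and 0 had an unadjusted p below 0.05. Cpt1a had 40.5 and 39.3, 64.5 and 89.6, and 78.8 and 70 CPM with STAT5, against 52.2 and 40.1, 65.3 and 67.2, and 97.4 and 82.9 CPM with control vectors (log2 fold change -0.10). The difference between genotypes was itself tested. For Cpt1a the effect of the vector in deficient cells minus that in wild-type cells was -0.97 ± 0.14 (adjusted p = 2.41e-07), and it was called in each set (-1.01, -1.14 and -0.75). For Acadm it was -0.38 ± 0.11 (adjusted p = 0.00293), but -0.26 with adjusted p = 0.0679 without the 5 libraries that stood apart. For Hadhb it was 0.24 (adjusted p = 0.0462), a call that 5 alternatives did not keep, the replicate block among them (adjusted p = 0.0535). Of all genes 45.4% were called in this test.

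Deficient cells with the STAT5 vector did not reach the Cpt1a level of wild-type cells with a control vector. The difference was 0.46 ± 0.10 (adjusted p = 0.000185), with 0.64, 0.53 and 0.20 in sets 2, 3 and 5, the last not called. Acads also stayed higher (0.26, adjusted p = 0.00217), whereas Acadm differed by -0.07 (adjusted p = 0.52). Acadl had a difference of -0.19 that missed the threshold (adjusted p = 0.0719) and passed with the replicate block (adjusted p = 0.0386). In this comparison 2 of the 10 genes were called, and 38.2% of all genes.

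**Figure D2:**
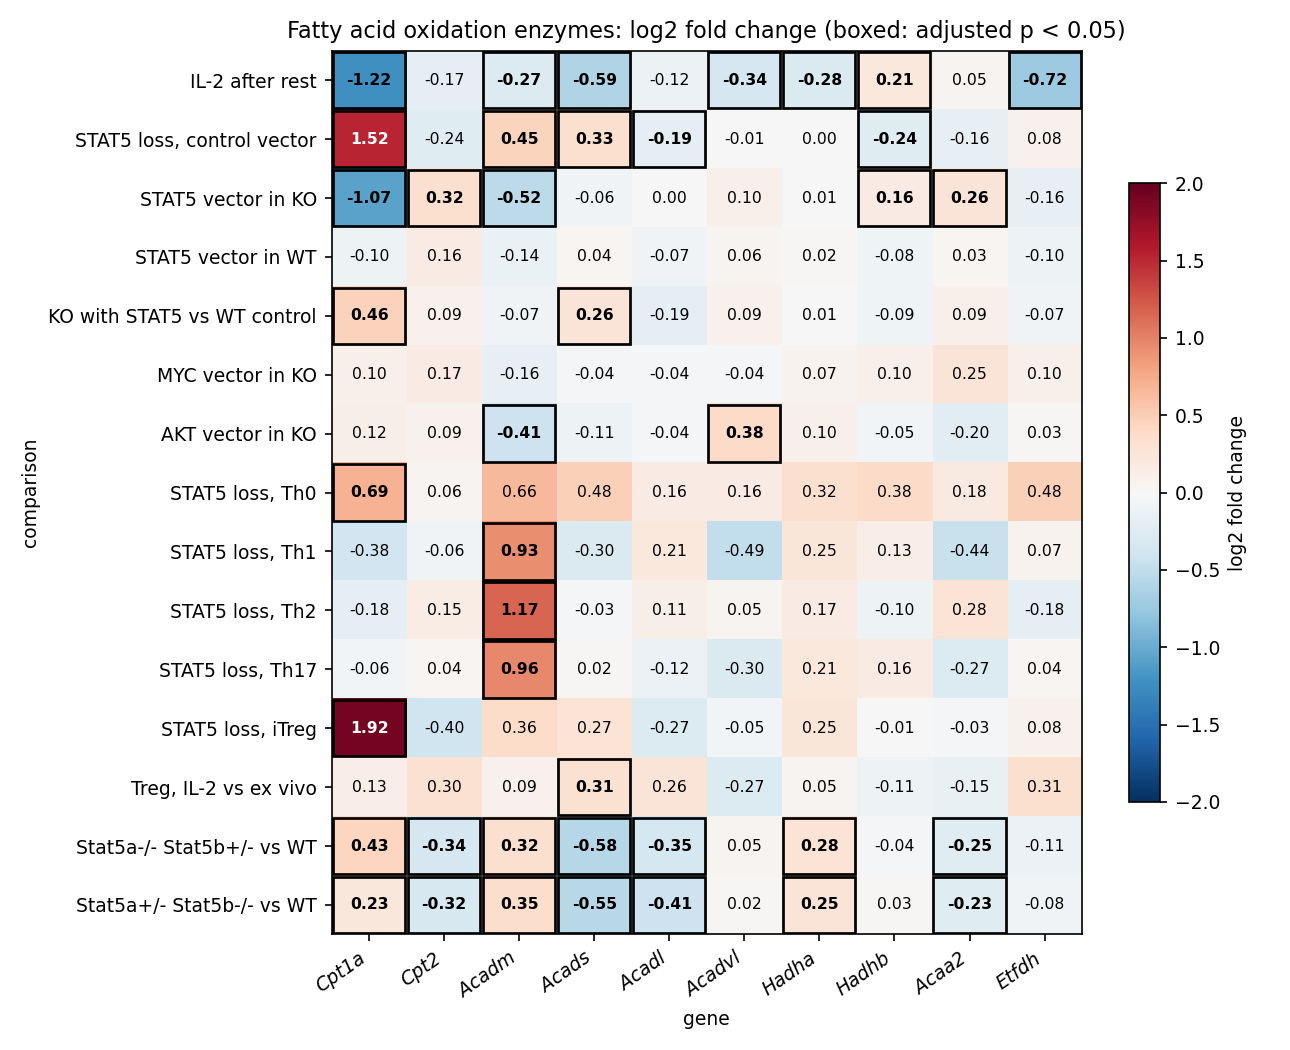
Log2 fold change of the 10 genes (columns) in 15 comparisons (rows), with the colour scale running from blue for lower to red for higher and a box around each value with an adjusted p below 0.05. Cpt1a has the largest values in the rows of IL-2 after rest (-1.22), STAT5 loss with control vectors (1.52), the STAT5 vector in deficient cells (-1.07) and STAT5 loss in iTreg cells (1.92), and Acadm is the boxed gene in Th1, Th2 and Th17 cells.

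Slc25a20 followed the same directions as Cpt1a, with -0.64 after the STAT5 vector in deficient cells. Of 12 further mitochondrial genes 6 rose there, among them Etfa (0.61) and Etfb (0.55), whose products carry electrons to ETFDH, and 3 fell. Of 9 uptake and activation genes 7 rose and 1 fell (median 0.87; Acsl6 3.62, Fabp5 3.25), and of 9 peroxisomal genes 2 rose and 4 fell (Crot -1.08). The monoacylglycerol lipase gene Mgll rose (3.19), Acaca rose (1.40) and Plin2 fell (-1.13). Summed myeloid and antigen-presenting cell markers were 33.3 to 133 CPM with STAT5 and 59.6 to 248.4 CPM with control vectors, with 3 of 6 lower, and B cell markers 0.8 to 4.3 CPM with STAT5 and 4 to 12.1 CPM with control vectors, with 4 of 5 lower. All 6 T cell markers were lower with STAT5 too. Of the 4 Treg cell markers, Il2ra had 1549.6 to 4437.4 CPM with STAT5 and 87.6 to 201.2 CPM with control vectors. Together the 4 (2 higher, 2 lower) summed to 2041.9 to 4926.5 CPM with STAT5 and 408.3 to 570.7 CPM with control vectors. Their part in the result was not tested.

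Vectors for MYC, AKT and CD25 did not bring a change in Cpt1a that passed the test, in either genotype. With MYC, deficient cells had 156.2 and 174.1 CPM in set 2 and 257.4 and 239.7 CPM in set 5, against 176.8 and 160 CPM, and 223 and 203.1 CPM, with control vectors (log2 fold change 0.10, 95% interval -0.13 to 0.32). With AKT they had 184.7 and 202.7 CPM in set 3 and 237.3 and 240.3 CPM in set 5 (0.12 against control vectors), and with CD25 159.9 and 184.6 CPM (-0.08). Myc itself was 974.5 and 588.8 CPM with the MYC vector in deficient cells of set 2, against 83 and 89.7 CPM with control, and Il2ra 329.9 and 299.1 CPM with the CD25 vector, against 137.4 and 116.7 CPM with control. In wild-type cells of set 2 Myc was 405.8 and 327.5 CPM with MYC, against 233.2 and 255.6 CPM with control. In wild-type cells of set 3 Akt1 was 474.7 and 471.1 CPM with AKT, against 295.8 and 302.3 CPM with control. Il2ra showed no gain with CD25 in these cells (2352.2 and 2596.5 CPM, against 2515.2 and 2661.3 CPM with control), so the wild-type CD25 result says little. In deficient cells Il2ra with the CD25 vector stayed far below these wild-type control values, which limits the result there too.

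AKT did change other members in deficient cells, where 2 of the 10 were called against 28.3% of all genes. Acadm fell to 40.8 and 44.3 CPM with AKT in set 3 and to 34.8 and 44.2 CPM in set 5, against 57 and 54.1 CPM, and 59.8 and 48.3 CPM, with control vectors (log2 fold change -0.41 ± 0.09, adjusted p = 0.000727). Acadvl rose to 129.2 and 138 CPM with AKT in set 3 and to 138.7 and 137.3 CPM in set 5, against 105.5 and 113.7 CPM, and 101.2 and 96.9 CPM, with control vectors (0.38 ± 0.09, adjusted p = 0.000841). The groups did not overlap for either gene. In the same comparison all 4 Treg cell markers were lower, with sums of 112 to 215.4 CPM with AKT and 408.3 to 570.7 CPM with control vectors, and 3 of 6 T cell markers were higher and 1 lower, and what these markers contribute was not tested. In wild-type cells 0 of the 10 were called with AKT, against 5.04% of all genes (3 with an unadjusted p below 0.05, and 0 by DESeq2). The difference of the AKT effect between genotypes was not called for any of the 10 (10.6% of all genes; 1 with an unadjusted p below 0.05). Its nearest was Acadm, at -0.36 with adjusted p = 0.0719, which DESeq2 called (adjusted p = 0.0073).

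With MYC, 0 of the 10 genes were called in deficient cells, against 12.5% of all genes (1 with an unadjusted p below 0.05, and 0 by DESeq2), and 0 in wild-type cells, against 0.795% (0 and 0). The difference between the genotypes gave 0 calls too, against 1.26% of all genes (1 with an unadjusted p below 0.05, and 0 by DESeq2). With CD25, edgeR called 0% of all genes and none of the 10 in either genotype (1 of the 10 with an unadjusted p below 0.05 in deficient cells and 0 in wild-type cells, and 0 by DESeq2 in both). These zero counts rest on 2 to 4 libraries a group.

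Adding MYC to STAT5 in deficient cells of set 5 raised Acaa2 and Acadm, 2 of the 10 against 6.02% of all genes. Acaa2 had 90.6 and 96 CPM with both, against 72 and 61.3 CPM with STAT5 and a control vector (0.48, adjusted p = 0.0218), and Acadm had 44.8 and 46.1 CPM, against 33.9 and 34.5 CPM (0.41, adjusted p = 0.0494). Leaving out any single library left 0 or 1 of these calls. Adding AKT to STAT5 gave 0 calls against 0.379% of all genes (2 with an unadjusted p below 0.05, and 0 by DESeq2). Leaving out the second library with STAT5 and AKT gave 4 calls, but the library that remained is the one with high Rn45s.

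In the 5 culture conditions without added IL-2, loss of STAT5 raised Acadm in Th1, Th2 and Th17 cells and Cpt1a in Th0 and iTreg cells. Acadm had 95.8 and 82.5 CPM in deficient Th1 cells, against 50.5 and 43.1 CPM in wild-type Th1 cells (log2 fold change 0.93 ± 0.21, adjusted p = 0.0111). It had 111.4 and 105.9 CPM in deficient Th2 cells, against 59.6 and 37 CPM in wild-type Th2 cells (1.17 ± 0.21, adjusted p = 0.00253). It had 89.1 and 108 CPM in deficient Th17 cells, against 53.4 and 48 CPM in wild-type Th17 cells (0.96 ± 0.21, adjusted p = 0.0142). All deficient libraries lay above the wild-type ones of the same condition, also in Th0 (53.1 and 64.8 CPM, against 36.7 and 38.2 CPM; 0.66, adjusted p = 0.0864) and in iTreg (54.6 and 69 CPM, against 45.8 and 50.5 CPM; 0.36, adjusted p = 0.252), where the difference was not called. Over the 5 conditions the mean was 0.81 ± 0.09 (adjusted p = 1.29e-05), and the test of a difference between conditions was not passed for Acadm (adjusted p = 0.281).

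Cpt1a behaved differently across the conditions, and here that test was passed (adjusted p = 3.47e-05, against 18.1% of all genes called, and 1 of the 10). In iTreg cells it had 257.8 and 205.3 CPM without STAT5, against 57.7 and 65 CPM in wild-type cells (1.92 ± 0.16, adjusted p = 1.18e-06), and 10.7% of genes changed more. In Th0 cells it had 86.6 and 74.8 CPM without STAT5, against 50.8 and 49.1 CPM in wild-type cells (0.69 ± 0.16, adjusted p = 0.0152). In Th1 cells the deficient libraries were the lower ones, at 31.9 and 31.4 CPM against 41.2 and 41.1 CPM, but the difference was not called (-0.38, adjusted p = 0.154). Th2 (-0.18) and Th17 (-0.06) overlapped between genotypes.

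**Figure D3:**
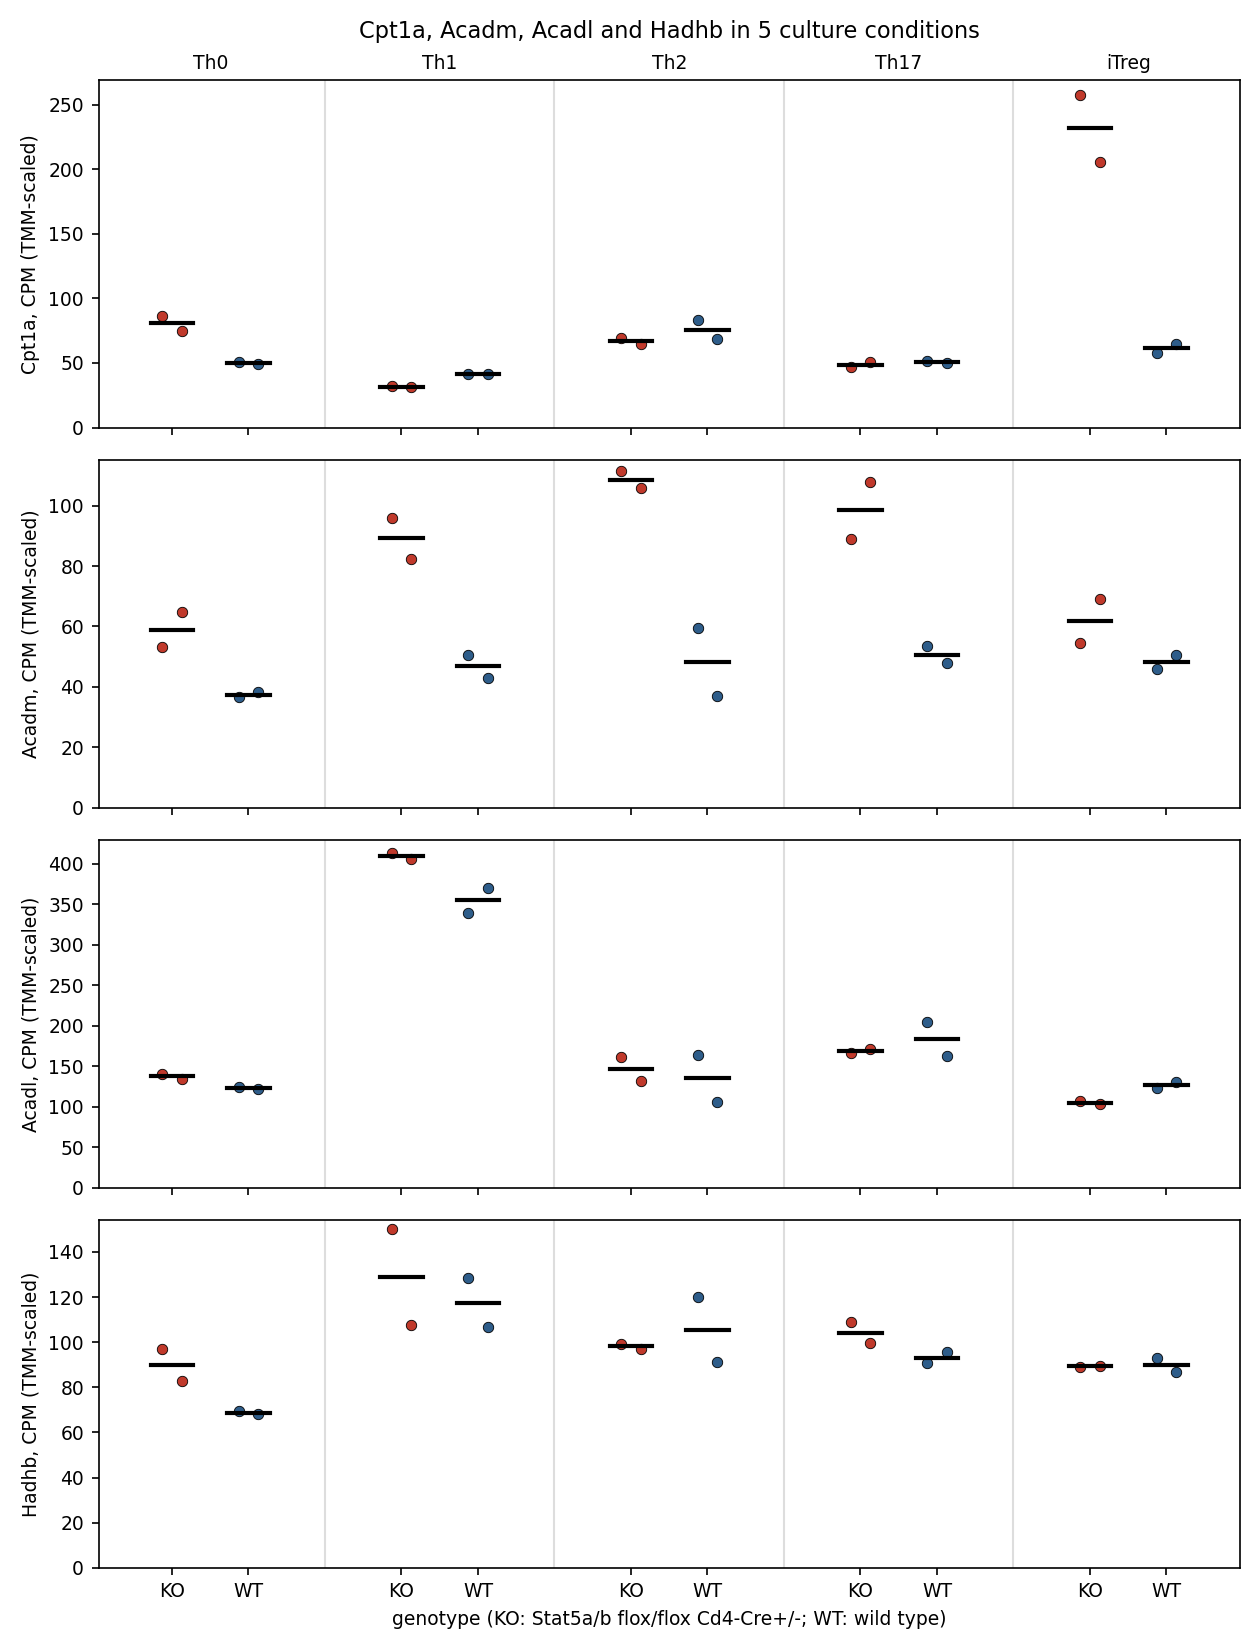
Level of Cpt1a, Acadm, Acadl and Hadhb in CPM (vertical axes, from 0) in STAT5-deficient and wild-type cells of the 5 culture conditions of set 4; points are the 2 libraries of a group and bars their mean. Acadm is higher in deficient cells in each condition, Cpt1a reaches 205.3 and 257.8 CPM only in deficient iTreg cells, and Acadl is at 339.8 CPM or more in Th1 cells of both genotypes.

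In each condition 1 of the 10 genes was called, against 6.49% of all genes in Th0, 11.7% in Th1, 11.5% in Th2, 4.88% in Th17 and 22.6% in iTreg. Averaged over conditions 3 were called, against 27.1% of all genes, the third being Hadha (0.24 ± 0.07, adjusted p = 0.0156), which lost its call without the filter on low counts (0.22, adjusted p = 0.0569). Single libraries decided some calls. Cpt1a in Th0 was no longer called without wild-type replicate 1 or 2 or deficient replicate 1 (0.72, 0.67 and 0.58; adjusted p = 0.0848, 0.111 and 0.133), nor when only the 2 groups entered the fit (adjusted p = 0.0792). Acadm lost its call in Th1 without wild-type replicate 2 (adjusted p = 0.0501) and in Th17 without replicate 2 of either genotype (adjusted p = 0.0861 without the wild-type and 0.165 without the deficient library). Replicate 2 of both Th1 groups carries Th2 as its cell type in the labels, while its title and treatment say Th1.

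Other lipid genes called in the average over conditions were the dienoyl-CoA reductase gene Decr1 (0.69), Slc25a20 (0.34) and the enoyl-CoA isomerase gene Eci1 (-0.61), out of 3 higher and 1 lower among 12 further mitochondrial genes. Of 6 genes of lipid stores 4 rose and 1 fell, with Plin2 at 1.07 and the hormone-sensitive lipase gene Lipe at -1.55. In iTreg cells 6 of 10 uptake and activation genes fell, with Acsl6 at -4.49 and Fabp5 at -2.47. Summed markers of myeloid and antigen-presenting cells stood higher without STAT5 in Th0 (137.3 to 201.4 CPM, against 49.6 to 65.8), Th1 (149.5 to 207.6, against 52.2 to 55.8) and Th17 (84.8 to 124.2, against 23.1 to 32.9) but not in Th2 (33.3 to 42.8, against 36.5 to 44.8) or iTreg (70.4 to 126.6, against 100 to 154.2). NK cell markers summed to 34.5 to 40.2 CPM in deficient and 7.4 to 8.4 CPM in wild-type Th0 cells, and to 17.8 to 29.2 CPM in deficient and 4.2 to 6.4 CPM in wild-type Th1 cells. In iTreg cells 3 of 4 Treg cell markers were lower and 1 higher, with sums of 1222.3 to 1361.3 CPM in deficient and 3341.3 to 3429.6 CPM in wild-type cells, and 5 of 6 T cell markers were higher, with sums of 2710.5 to 2940.8 CPM in deficient and 1573.5 to 1781.6 CPM in wild-type cells. Their part in the result was not tested.

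Among wild-type cells, Acadl was highest in the Th1 condition. It had 339.8 and 370.7 CPM in Th1 cells, against 124.2 and 122.1 CPM in Th0 cells (log2 fold change 1.53 ± 0.18, adjusted p = 4.63e-05). Deficient Th1 cells had 414 and 405.7 CPM, and the effect of STAT5 loss there was 0.21 and not called (adjusted p = 0.554). In Th17 cells Acadl had 204.3 and 163.2 CPM (0.58 against Th0, adjusted p = 0.0714), which passed with the replicate number as a block (0.57, adjusted p = 0.0488). Th2 (164.6 and 106.4 CPM) and iTreg (123 and 130.8 CPM) were not called against Th0.

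Hadhb was called in Th1 (128.4 and 106.6 CPM) and in Th2 (119.9 and 91.1 CPM), against 69.6 and 68 CPM in Th0, with log2 fold changes of 0.77 (adjusted p = 0.00618) and 0.62 (adjusted p = 0.0207). Its partner Hadha was at -0.08 and -0.04 in the same comparisons. Cpt1a was called in Th2 (82.9 and 68.3 CPM, against 50.8 and 49.1 CPM in Th0; 0.60, adjusted p = 0.0132). Thus 2 of the 10 were called in Th1, against 22.2% of all genes, and 2 in Th2, against 23.7%. Acads in Th1 (84.2 and 60.4 CPM, against 49 and 39.9 CPM in Th0) had a difference of 0.70 that missed the threshold (adjusted p = 0.0639) and passed with the replicate block (0.69, adjusted p = 0.032). In Th17 0 were called, against 7.41% of all genes (2 with an unadjusted p below 0.05, and 2 by DESeq2; 1 with the replicate block), and in iTreg 0, against 7.95% (1 with an unadjusted p below 0.05, and 0 by DESeq2). The Th2 calls rest on few libraries: only the 2 groups in the fit gave 0, and leaving out a library gave 0 to 5, the highest without wild-type Th2 replicate 2. These 4 comparisons share the Th0 libraries.

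In natural Treg cells overnight IL-2 left Cpt1a near its level in fresh cells: 133.1 and 131.5 CPM after culture and 110.6 and 130.8 CPM directly from mice (log2 fold change 0.13 ± 0.08, adjusted p = 0.269). Acads was the 1 gene of the 10 called, against 31% of all genes, with 49.3 and 51.9 CPM after culture and 39.9 and 41.8 CPM in fresh cells (0.31 ± 0.09, adjusted p = 0.0407). DESeq2 did not call it (adjusted p = 0.181), and leaving out any of the 4 libraries ended the call (adjusted p from 0.0847 to 0.178). Etfdh (0.31), Acadl (0.26) and Acadvl (-0.27) had adjusted p values of 0.0783, 0.0823 and 0.0815. Hadha had 143.8 and 148.3 CPM after culture and 139 and 143.8 CPM in fresh cells. Summed markers of B cells were 103.6 to 268.5 CPM after culture and 105.7 to 232.7 CPM in fresh cells, and those of myeloid and antigen-presenting cells 134.5 to 326.5 CPM after culture and 188.7 to 426.9 CPM in fresh cells. All 6 T cell markers were lower, with sums of 2064.9 to 2075.6 CPM after culture and 3139.1 to 3193.4 CPM in fresh cells, and 3 of 4 Treg cell markers were higher, with sums of 5669.2 to 5958.6 CPM after culture and 3143.9 to 3433 CPM in fresh cells. Their part in the result was not tested.

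With only 1 remaining copy of Stat5b or of Stat5a, 7 of the 10 genes were called in each genotype, 3 higher and 4 lower, near the share of all genes called (57.6% and 57%). Both comparisons use the same 2 wild-type libraries, so their likeness is not independent. In Stat5a-/- Stat5b+/- cells Stat5b was at 54 and 57.1 CPM, against 268.3 and 282.8 CPM in wild-type cells. In Stat5a+/- Stat5b-/- cells Stat5a was at 97.6 and 108.3 CPM, against 197.9 and 194 CPM in wild-type cells. Cpt1a had 96.2 and 86 CPM in Stat5a-/- Stat5b+/- cells and 81.7 and 77.3 CPM in Stat5a+/- Stat5b-/- cells, against 63 and 72.5 CPM in wild-type cells. The log2 fold changes were 0.43 ± 0.09 (adjusted p = 0.00185) and 0.23 ± 0.09 (adjusted p = 0.0452). The second was lost with DESeq2 (adjusted p = 0.107), with RLE scaling (adjusted p = 0.0538), with only the 2 groups in the fit (adjusted p = 0.0548), and without wild-type replicate 1 (0.13) or either of its own libraries (0.18 and 0.27).

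Acadm was also higher, at 51 and 50.5 CPM in Stat5a-/- Stat5b+/- cells and 49.1 and 55 CPM in Stat5a+/- Stat5b-/- cells, against 41.5 and 40.1 CPM in wild-type cells (0.32, adjusted p = 0.0119, and 0.35, adjusted p = 0.0062). So was Hadha, at 215.6 and 209.5 CPM and 208.9 and 208.5 CPM, against 173.9 and 177 CPM (0.28, adjusted p = 0.0023, and 0.25, adjusted p = 0.00398). The groups did not overlap for these genes. Acadm lost its call in the first genotype without its replicate 1 (adjusted p = 0.0619) or wild-type replicate 2 (adjusted p = 0.0566), and in the second without its replicate 2 (adjusted p = 0.0543).

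Acads was lower in both genotypes. It had 41.7 and 39.8 CPM in Stat5a-/- Stat5b+/- cells and 41.3 and 41.7 CPM in Stat5a+/- Stat5b-/- cells, against 57.4 and 64.4 CPM in wild-type cells (-0.58 ± 0.09, adjusted p = 0.000257, and -0.55 ± 0.09, adjusted p = 0.000286). Acadl had 131 and 116.6 CPM and 122.1 and 115.7 CPM, against 168.4 and 148.9 CPM (-0.35 and -0.41, adjusted p = 0.00374 and 0.00124). Cpt2 had 21.5 and 21.7 CPM and 20.9 and 22.9 CPM, against 27 and 27.5 CPM (-0.34 and -0.32), and Acaa2 64.8 and 66.1 CPM and 65.7 and 66.3 CPM, against 73.4 and 82 CPM (-0.25 and -0.23). Cpt2 was not called by DESeq2 in either genotype (adjusted p = 0.0824 and 0.101), nor Acaa2 in the second (adjusted p = 0.0592). In Stat5a-/- Stat5b+/- cells Cpt2 also lost its call whichever library was left out, with log2 fold changes from -0.35 to -0.32. Acaa2 lost its call there without wild-type replicate 2 (-0.17) or either library of that genotype (-0.23 and -0.26). In Stat5a+/- Stat5b-/- cells Cpt2 lost its call without either wild-type library (-0.33 and -0.31) or replicate 1 of that genotype (-0.26). Acaa2 lost its call in these cells without wild-type replicate 2 (-0.15) or either library of that genotype (-0.24 and -0.24). Acadvl, Hadhb and Etfdh did not pass in either genotype.

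Of all genes 29.2% were higher and 28.4% lower in Stat5a-/- Stat5b+/- cells, and 28.7% were higher and 28.3% lower in Stat5a+/- Stat5b-/- cells, and the medians of the 10 genes were -0.08 and -0.03 beside 0.01 for all genes in both. Leaving out a library left 4 to 6 calls in the first genotype and 4 or 5 in the second, and DESeq2 gave 4 in the second. The 2 genotypes were not tested against each other. Summed myeloid and antigen-presenting cell markers were 11.6 to 12.2 CPM in Stat5a-/- Stat5b+/- cells and 50.6 to 56 CPM in Stat5a+/- Stat5b-/- cells, against 59.1 to 62.6 CPM in wild-type cells, and NK cell markers 80.8 to 84.6 CPM and 35.3 to 64.9 CPM, against 12.4 to 14.6 CPM. All 4 Treg cell markers were lower in both genotypes, with sums of 908.2 to 918.7 CPM in Stat5a-/- Stat5b+/- cells and 905 to 948.4 CPM in Stat5a+/- Stat5b-/- cells, against 2135.2 to 2430 CPM in wild-type cells. Rn45s was called higher in both, at 4301.5 to 6711.9 CPM in Stat5a-/- Stat5b+/- cells and 3165.1 to 4368.7 CPM in Stat5a+/- Stat5b-/- cells, against 2170.7 to 2342 CPM in wild-type cells. Their part in the result was not tested. In Stat5a-/- Stat5b+/- cells the further pathway genes called included Acad9 (0.59), Etfb (0.78), Eci1 (-0.78) and Lipe (-3.05).

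**Figure D4:**
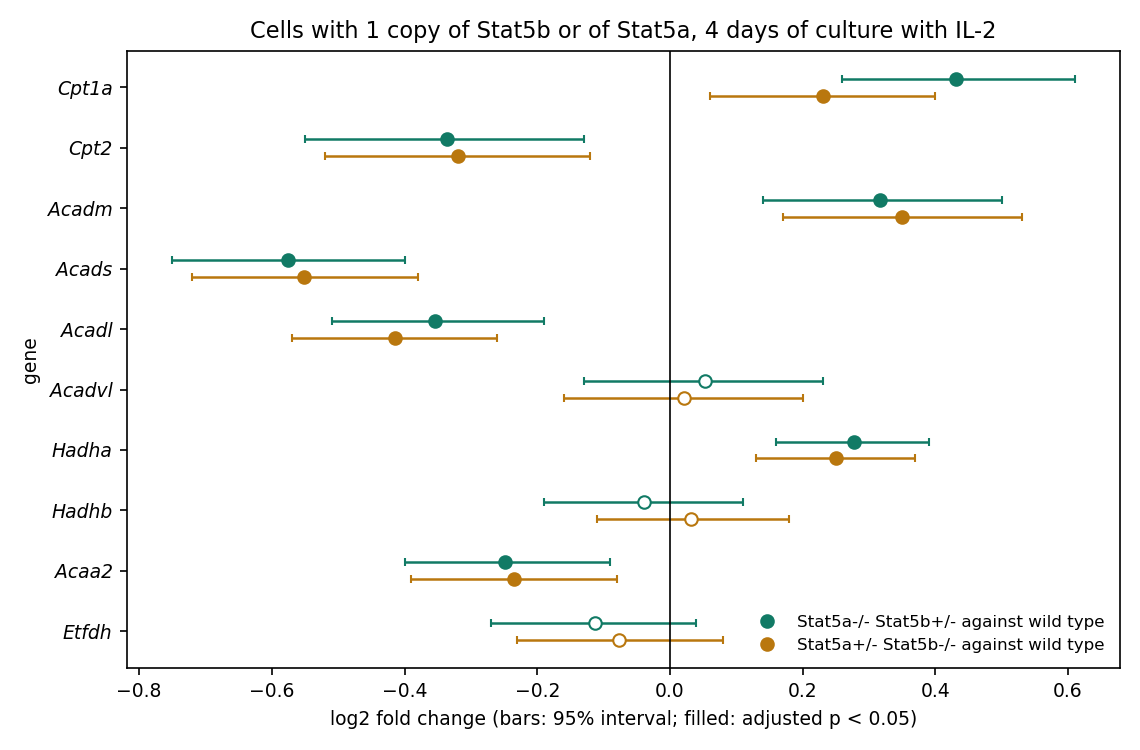
Log2 fold change of the 10 genes (horizontal axis, where 0 is the wild-type level) in Stat5a-/- Stat5b+/- and in Stat5a+/- Stat5b-/- cells of set 7, each against wild-type cells. Bars are 95% intervals from a normal distribution, and filled points have an adjusted p below 0.05. Cpt1a, Acadm and Hadha lie to the right of 0 and Cpt2, Acads, Acadl and Acaa2 to the left in both genotypes, while Acadvl, Hadhb and Etfdh have intervals that include 0.

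Over the 26 comparisons of one condition with another, Cpt1a was called 10 times (8 higher, 2 lower) and Acadm 11 times (8 higher, 3 lower). Etfdh was called once, after IL-2 in set 1, and Acadvl in 2 comparisons. Cpt2 was called 3 times, Acadl, Hadha and Acaa2 4 times each, Hadhb 5 times and Acads 6 times. The share of all genes called ran from 0% to 81.1% in single comparisons. Calls per gene were not counted for other genes, so whether any of these counts is high or low for a gene cannot be said. Many of the comparisons share libraries, and the average over the 5 culture conditions is counted beside its parts. Across the 26 vector groups of sets 2, 3 and 5, centred within each set, the Pearson correlation with Cpt1a was 0.66 for Acadm, 0.53 for Acads and 0.49 for Etfdh, and -0.57 for both Cpt2 and Hadhb. These are descriptions over groups that share sets and control vectors. The genes most like Cpt1a by the same measure, among 8073, were Glcci1 (0.971), Ttc17 (0.971), Bbc3 (0.967), Chd3 (0.967) and 0610009O20Rik (0.966).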

How the data were processed

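RNA-seq libraries of 88 samples in 43 groups were used, with groups taken from the labels. The deposited values are read counts per gene, whole numbers in 1 table per set. Per the submitters' processing notes, the authors made them with TopHat2, Bowtie2 and HTSeq on mouse build mm9 (versions not given in the sources used here), and per the labels' protocols libraries were made of poly(A) RNA. Whether counting used strand is not given in the sources used here. The 10 genes, the lists of other lipid genes and the tests were chosen with earlier results of these data known. In sets 4 and 6, 27 rows whose names had become dates were left out (at most 0.266% of a library), and in sets 1 and 3, 250 symbols were given back a lost hyphen. Peak lists and chromatin samples are not analysed here.

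Counts were tested with edgeR 4.0.16 (limma 3.58.1) in R 4.3.3: filterByExpr by group (minimum count 10), TMM scaling and quasi-likelihood tests of 1 mean per group, in 1 model each for set 1, sets 2, 3 and 5 together (52 libraries), set 4, set 6 and set 7. A comparison over several sets averages the differences within sets. Benjamini-Hochberg adjustment ran over all genes of the model, and adjusted p below 0.05 made a call. The standard errors are those of the fitted log2 fold changes. The script was tested on simulated data. Alternatives were RLE scaling, no filter, DESeq2 1.42.0, the replicate number as a block, only the groups compared, and leaving out each library (with the dispersion trend of the whole model). Leaving out the 5 libraries that stood apart was added after seeing the data. Deviations of libraries with the same number correlated above 0.1 in every pair of groups of set 2 (lowest 0.11) and set 4 (lowest 0.11). There the numbers were taken to pair the samples, which the labels do not state. In sets 1, 3, 5 and 7 not every pair was above 0.1, and set 6 has 1 such pair. The reported tests used no block in any set, and the block was an alternative in all of them. The text names the 10 genes, the genotype and vector genes, up to 4 called genes per list of other lipid genes with the largest change, and the 5 genes most like Cpt1a. Promoter sequences are RefSeq's on GRCm38.p6. Genes with close copies, such as Acaa1a and Acaa1b, are not named.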

Additional observations from a re-analysis of the deposited data

Results flagged for a closer look

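Differences between genotypes in the effect of the STAT5 vector were tested directly and passed for 3 of the 10 genes, against 45.4% of all genes. As deficient minus wild type they were -0.97 on the log2 scale for Cpt1a, -0.38 for Acadm and 0.24 for Hadhb. Acadm did not keep its call without the 5 libraries that stood apart, nor Hadhb under several alternatives. The effect of STAT5 loss on Cpt1a differed among the 5 culture conditions (adjusted p = 3.47e-05, edgeR quasi-likelihood F test). Cpt1a was the 1 gene of the 10 called there, against 18.1% of all genes.

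For 5 genes the libraries with IL-2 lay wholly on one side of their controls in activated T cells of set 1 and on the other side in Treg cells of set 6, though for Hadha the lowest cultured and the highest fresh Treg library were both at 143.8 CPM. The log2 fold changes were -1.22 in activated cells and 0.13 in Treg cells for Cpt1a, -0.59 and 0.31 for Acads, and -0.28 and 0.05 for Hadha. They were 0.21 in activated cells and -0.11 in Treg cells for Hadhb, and -0.72 and 0.31 for Etfdh. The difference between the cell types was not tested, and of the Treg values only that of Acads was called, a call lost with DESeq2 (adjusted p = 0.181) and on leaving out any library. With the replicate block that of Etfdh was called as well. Controls were rested cultures in set 1 and fresh cells in set 6. How many of all genes lay on opposite sides in these sets was not counted, so the count of 5 cannot be read as particular to these genes. Of all genes 81.1% were called in set 1 and 31% in set 6.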

How the results depend on the processing

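Each of the 300 results for single genes (10 genes in 30 comparisons, 54 of them called) was recomputed under every alternative that could be fitted, and none that was called changed direction. With RLE scaling 291 kept their side of the threshold, without the filter on low counts 288, with DESeq2 283, with the replicate block 291, with only the groups compared 250 of 260, without the 5 libraries that stood apart 147 of 150, and when leaving out each library 2361 of 2460. Without the filter the median of all genes moved by 0.19 for STAT5 loss, -0.11 for the STAT5 vector in deficient cells and -0.12 for the difference between genotypes.

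Counts of the 10 genes called moved as follows, and the cause was not tested. Without the filter they were 3 in place of 5 for the STAT5 vector in deficient cells, 1 in place of 2 for MYC added to STAT5, and 2 in place of 1 in Treg cells. With RLE scaling they were 1 in place of 0 for the genotype difference of the AKT effect and for wild-type Th17 against Th0. With DESeq2 they were 1 in place of 0 for that AKT difference, 3 in place of 1 for STAT5 loss in Th0, 2 in place of 1 in Th1, 2 in place of 0 for wild-type Th17, 0 in place of 1 in Treg cells and 4 in place of 7 for Stat5a+/- Stat5b-/-. With only the groups compared they were 0 in place of 1 for STAT5 loss in Th0 and 0 in place of 2 for wild-type Th2. With the replicate block they were 1 in place of 0 for wild-type Th17 and 4 in place of 1 in Treg cells (Acadl, Acadvl and Etfdh added; a hint only, since 1 pair does not show that the numbers pair the samples), and 28 of 30 counts were unmoved or within 1.5 times.

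Leaving out 1 library gave 3 to 5 calls for the STAT5 vector in deficient cells, 0 to 1 for MYC added to STAT5, 0 to 4 for AKT added to STAT5, 0 to 1 for the AKT difference, and 0 to 1 for STAT5 loss in Th0, in Th1 and in Th17. It gave 1 to 2 for the difference among conditions, 0 to 5 for wild-type Th2, 0 to 1 for wild-type Th17, 0 to 2 in Treg cells, 4 to 6 for Stat5a-/- Stat5b+/- and 4 to 5 for Stat5a+/- Stat5b-/-.

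Counts over all genes moved by more than 1.5 times in comparisons with few calls. MYC in wild-type cells called 130 genes, against 438 with DESeq2, 228 with the block, 336 without the 5 libraries and 1 with only its groups. MYC added to STAT5 called 984, against 1772, 1482 without the 5 and 2598 with only its groups. AKT added to STAT5 called 62, against 127, 110, 26 and 4 in the order given for MYC. The MYC difference called 206, against 130 without the filter, 410, 494 and 43. CD25 in deficient cells called 0, or 1 in 5 alternatives. AKT in wild-type cells called 825, or 1272 with only its groups. In set 4, DESeq2 called 1635 against 993 in Th0, 2816 against 1796 in Th1, 1166 against 747 in Th17, 1851 against 1133 for wild-type Th17 and 1906 against 1217 for wild-type iTreg. The block called 2994 against 1765 in Th2, and only the groups compared 871 against 1796 in Th1, 803 against 1765 in Th2, 1714 against 3627 for wild-type Th2 and 553 against 1133 for wild-type Th17. In Treg cells DESeq2 called 2447 against 3701.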
